A study of Mus musculus with 54 samples.

Results

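Described here are 32 mouse genes that carry glucose to lactate or respond to low oxygen, measured in lung fibroblasts and in whole lungs. They comprise transporters at the entry and exit of the pathway (Slc2a1, Slc16a1, Slc16a3) and 16 glycolytic enzymes from hexokinase to lactate dehydrogenase. Regulators of flux (Pfkfb3, Pfkfb4, Pdk1), oxygen sensing genes (Hif1a, Egln1, Egln3) and 7 further hypoxia-inducible genes (Bnip3, Ankrd37, Vegfa, Car9, Ndrg1, Mxi1, Kdm3a) complete the set. The genes were taken by symbol from 4 tables of TPM, in which a transcript's length-corrected share of its library is scaled by the authors to a fixed total. All 32 were listed in each table, among 26264 genes in the fibroblast table and 32534 to 35003 genes in the lung tables. All 32 also passed the filter for testing, 3 or more libraries of the table at or above 1 TPM, which left 13084 genes in fibroblasts and 17209 to 18593 genes in lungs.

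The study concerned leucine, isoleucine and valine, the branched-chain amino acids (BCAA), and the keto acids (BCKA) that cells make from them. It varied both in cultured fibroblasts and BCAA supply or BCKA oxidation in mice given bleomycin, a drug whose lung injury serves as a model of fibrosis. All 54 samples were wild type. The 24 culture libraries were primary lung fibroblasts from mice aged 6 to 8 weeks, grown at 5% O2 and 5% CO2. Cells spent 24 h in one of 4 media: BCAA-free medium with BCKA added, BCAA-free medium with BCAA added, BCAA-free medium, or complete medium. The cytokine TGF-β1 (20 ng/mL, for 48 h), which activates fibroblasts, or PBS was then added to each medium, which gave 8 groups of 3 libraries. All culture groups therefore shared the reduced oxygen, and the doses of BCAA and BCKA are not given in the sources used here.

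The 30 lung libraries came from male C57BL/6 mice aged 10 to 12 weeks in 3 experiments, each with its own PBS group on normal diet. In the water experiment (3 mice per group, lungs taken on day 14), the groups were bleomycin at 1.25 mg/kg after 7 days of 3 mM BCAA in drinking water (BLM_BCAA), the same bleomycin with normal water (BLM_NW), and PBS (PBS_NW). In the diet experiment (4 mice per group, day 21), they were 1.25 mg/kg with 14 days of BCAA-free diet that began on day 7 (BLM_BCAA_free), the same bleomycin with normal diet (BLM_ND), and PBS (PBS_ND). The BT2 experiment (3 mice per group, day 14) used 3.5 mg/kg followed from day 3 by 11 daily injections of BT2 at 20 mg/kg (BLM_BT2) or of 10% DMSO (BLM_DMSO), beside a group titled PBS_DMSO whose treatment label names PBS alone. BT2 inhibits the kinase that switches off the complex that oxidizes BCKA. The extraction protocol in the labels names heart tissue for the tissue samples, while each of these samples is labelled lung. Nothing in the labels says that libraries of 1 culture group came from separate cultures, so p-values there measure the spread between these libraries, which may be technical.

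Glycolysis turns glucose into pyruvate in the cytosol, and lactate dehydrogenase and the monocarboxylate transporters then reduce pyruvate to lactate and pass it out of the cell. Hypoxia-inducible factor (HIF) is a transcription factor whose α subunit, encoded for the best known form by Hif1a, is controlled mainly as a protein: prolyl hydroxylases such as those encoded by Egln1 and Egln3 use oxygen and α-ketoglutarate to mark it for destruction. HIF raises the transcription of glucose transporters, of most glycolytic enzymes and of Pdk1, a kinase that inhibits pyruvate dehydrogenase. It also raises that of Vegfa, a growth factor for vessels. Egln3 and Egln1 are themselves HIF targets, and activated lung fibroblasts are known for a high rate of glycolysis.

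HIF binds DNA at the short core ACGTG or GCGTG, so promoter windows are shown for 4 genes that were higher with BCKA than with BCAA (below) and, beside them, for Hif1a, which was not called. The windows are from RefSeq on GRCm38.p6, a build other than the mm39 named for the deposited tables, and run from 250 bases before to 50 bases after an annotated start. For a gene with several starts the window with the most cores is printed. They lie at chr12:54203825-54204124 on the minus strand (Egln3), chr2:71872974-71873273 on the plus strand (Pdk1), chr11:120948817-120949116 on the plus strand (Slc16a3), chr8:45999801-46000100 on the minus strand (Ankrd37) and chr12:73907617-73907916 on the plus strand (Hif1a). Capitals mark the cores ACGTG and GCGTG, and CACGT and CACGC where the core lies on the other strand; adjoining or overlapping cores form longer capital runs.
Egln3: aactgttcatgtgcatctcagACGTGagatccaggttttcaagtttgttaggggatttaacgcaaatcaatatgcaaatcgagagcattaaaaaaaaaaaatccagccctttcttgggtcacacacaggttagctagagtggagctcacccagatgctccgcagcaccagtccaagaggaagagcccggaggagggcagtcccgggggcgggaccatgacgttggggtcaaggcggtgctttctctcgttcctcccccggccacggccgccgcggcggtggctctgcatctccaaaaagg
Pdk1: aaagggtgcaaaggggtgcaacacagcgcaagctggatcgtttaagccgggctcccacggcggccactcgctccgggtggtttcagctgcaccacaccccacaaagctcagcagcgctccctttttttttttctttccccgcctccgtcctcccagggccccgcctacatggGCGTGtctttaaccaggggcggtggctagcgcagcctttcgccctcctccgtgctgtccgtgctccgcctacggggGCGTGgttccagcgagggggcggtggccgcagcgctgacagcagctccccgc
Slc16a3: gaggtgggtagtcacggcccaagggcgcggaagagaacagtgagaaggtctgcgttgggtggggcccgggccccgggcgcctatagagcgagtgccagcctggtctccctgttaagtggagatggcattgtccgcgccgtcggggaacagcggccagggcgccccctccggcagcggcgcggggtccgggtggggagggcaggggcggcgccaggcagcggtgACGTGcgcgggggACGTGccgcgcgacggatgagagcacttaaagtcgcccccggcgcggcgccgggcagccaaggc
Ankrd37: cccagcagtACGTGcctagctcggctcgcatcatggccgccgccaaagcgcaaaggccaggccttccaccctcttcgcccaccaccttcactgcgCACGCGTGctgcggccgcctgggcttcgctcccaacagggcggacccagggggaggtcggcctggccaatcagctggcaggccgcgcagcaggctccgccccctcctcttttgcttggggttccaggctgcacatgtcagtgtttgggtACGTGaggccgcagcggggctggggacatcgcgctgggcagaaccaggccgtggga
Hif1a: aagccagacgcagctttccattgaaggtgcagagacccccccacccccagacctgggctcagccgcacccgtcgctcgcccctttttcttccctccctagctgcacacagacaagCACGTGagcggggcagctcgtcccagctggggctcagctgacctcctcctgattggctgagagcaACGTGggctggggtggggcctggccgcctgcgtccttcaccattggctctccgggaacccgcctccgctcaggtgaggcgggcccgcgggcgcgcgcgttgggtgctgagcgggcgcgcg
The windows hold 1 core in Egln3, 2 in Pdk1, 2 in Slc16a3, 4 in Ankrd37 and 3 in Hif1a. Of the 32 genes, 31 matched the promoter table (Ndrg1 did not), and 28 of these 31 (90.3%) held a core in at least 1 window, against 46.7% of all 27025 genes there. Per window, 43.8% of all 32851 promoters held a core, and 73.6% of the 8701 promoters with at least 20 CG dinucleotides, the median of the 49 windows of these genes. Of those 49 windows 37 (75.5%) held one, close to the 73.6% of the promoters with at least as many CG dinucleotides. A core was present in 10 of 10 genes that were higher with BCKA both with TGF-β1 and with PBS and in 18 of 21 others. These are letter matches, not measured binding.

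Before the results, some libraries need naming. Free_TGFb replicate 1 stood apart from its group: Gpi1 was at 589, 1135 and 1058 TPM in replicates 1, 2 and 3 and Gapdh at 1186, 2006 and 1822 TPM. The summed level of 8 fibroblast markers there spanned 14714 to 70161 TPM across the 3. BLM_BCAA_free replicate 3 listed 17554 genes above 0, the fewest of the 30 lung libraries, with Eno2 at 0. The PBS_ND lungs stood apart from the PBS lungs of the other experiments. Their 8 endothelial markers summed to 157 to 259 TPM (1217 to 1752 TPM in PBS_NW, 1663 to 2329 TPM in PBS_DMSO, 1759 to 2387 TPM in BLM_ND). Their 7 alveolar type 2 markers summed to 8537 to 12842 TPM (40063 to 40799.5 TPM in PBS_NW, 47056 to 59972 TPM in PBS_DMSO, 18966 to 26667 TPM in BLM_ND). Mitochondrial transcripts held 12.2 to 17.3% of TPM in PBS_ND, 8.41 to 13.4% in PBS_NW, 5.38 to 6.37% in PBS_DMSO and 4.41 to 5.29% in BLM_ND. The 6 ciliated and club cell markers did not set them apart (122214 to 291735 TPM in PBS_ND, 140170 to 250398 TPM in PBS_NW, 107320 to 152311 TPM in PBS_DMSO, 25231 to 29737 TPM in BLM_ND). The cultures carried fibroblast markers (Col1a1 at 3145 to 27677 TPM, Pdgfra at 448 to 1385 TPM), while Ptprc, Adgre1, Sftpc, Cd3e and Scgb1a1, which mark leukocytes, macrophages, alveolar type 2 cells, T cells and club cells, were at most at 0.12 TPM. Other markers were less low: the endothelial Pecam1 and Cdh5 reached 0.87 and 0.68 TPM and the epithelial Epcam 1.15 TPM. Ager, an alveolar type 1 marker, was at 0.518 to 4.81 TPM. As lists, 12 macrophage and monocyte markers summed to 445 to 1184.5 TPM in the cultures, and 7 alveolar type 1 markers to 92.2 to 394.8 TPM. Only 5 of these 12 and 4 of these 7 passed the filter for testing in cultures, so the sums rest mainly on a few genes. Only TPM were used, so the depth behind each value is unknown. Differences are of mean log2(TPM + 1), which understates the change of low genes, and a gene was called at a limma adjusted p under 0.05 over all genes of its table. Shares over all genes are given for these fits and for some fits of centred libraries. Counts from other fits, such as those with fewer groups or libraries, stand without such shares.

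Returning the keto acids instead of the amino acids raised a large part of these genes in fibroblasts, and lowered none of them past the threshold. In cells with PBS, 17 of 32 were higher and 0 lower in BCKA than in BCAA medium, where 0.65% of all genes were called, 0.375% higher and 0.275% lower. With TGF-β1, 12 of 32 were higher and 0 lower, where 0.268% of all genes were called, 0.222% higher and 0.0459% lower. The median difference of the 32 was 0.50 log2 with PBS and 0.42 log2 with TGF-β1, against 0.00 and -0.01 log2 over all tested genes. Of all 49 genes called higher with BCKA in PBS cells, 17 were among the 32, as were 12 of all 29 called higher with TGF-β1 (41.4%). The calls came in both backgrounds for 10 genes: Slc2a1, Pgam1, Eno1, Slc16a3, Pdk1, Egln1, Egln3, Bnip3, Ankrd37 and Vegfa.

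The prolyl hydroxylase gene Egln3, a feedback brake on HIF, had the largest difference of the set. With TGF-β1 it was at 102, 100.3 and 102 TPM in BCKA cultures, against 47.4, 44.8 and 43.2 TPM in BCAA cultures (1.15 ± 0.11 log2 (SE), adjusted p = 9.38e-06). With PBS it was at 45.9, 42.8 and 45.3 TPM in BCKA cultures, against 21.1, 20.2 and 20.5 TPM in BCAA cultures (1.08 ± 0.11 log2 (SE), adjusted p = 7.38e-06). Every BCKA library lay far above every BCAA library of the same background, and the BCKA cultures with PBS reached the level of the BCAA cultures with TGF-β1. The other hydroxylase, Egln1, moved less, with 159, 156 and 154 TPM in BCKA and 91.3, 98.7 and 102 TPM in BCAA cultures with TGF-β1 (0.68 ± 0.07 log2 (SE), adjusted p = 9.38e-06). It had 121, 119 and 127 TPM in BCKA and 86.5, 85.5 and 84.8 TPM in BCAA cultures with PBS (0.51 ± 0.07 log2 (SE), adjusted p = 0.000162). Hif1a mRNA was not called in either background: it stood at 443, 391 and 368 TPM in BCKA and 406, 432 and 439 TPM in BCAA cultures with TGF-β1 (-0.09 ± 0.10 log2 (SE), adjusted p = 1), where the groups overlapped. With PBS Hif1a was at 308, 279.8 and 281 TPM in BCKA and 248, 282 and 269.9 TPM in BCAA cultures (0.12 ± 0.10 log2 (SE), adjusted p = 1), and these libraries overlapped too.

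Pdk1, the kinase that inhibits pyruvate dehydrogenase, was at 109.7, 99.5 and 105 TPM in BCKA cultures with TGF-β1, against 65.4, 68.9 and 69.1 TPM in BCAA cultures (0.62 ± 0.07 log2 (SE), adjusted p = 0.00011). With PBS it was at 106, 103 and 105 TPM with BCKA, against 59.8, 62.9 and 58.6 TPM with BCAA (0.78 ± 0.07 log2 (SE), adjusted p = 3.38e-06). In both backgrounds the BCKA libraries were between 99.5 and 109.7 TPM and the BCAA libraries between 58.6 and 69.1 TPM. Bnip3, a mitophagy receptor, reached 324, 244 and 252 TPM with BCKA and 148, 160.3 and 170.5 TPM with BCAA under TGF-β1 (0.77 ± 0.12 log2 (SE), adjusted p = 0.00293). With PBS it had 172, 170.2 and 193 TPM with BCKA and 97.6, 112 and 110.3 TPM with BCAA (0.74 ± 0.12 log2 (SE), adjusted p = 0.0022). Ankrd37, an ankyrin repeat gene known as a HIF target, was scarce in culture but had 3.05, 2.82 and 2.59 TPM with BCKA and 1.32, 0.664 and 1.15 TPM with BCAA under TGF-β1 (0.91 ± 0.16 log2 (SE), adjusted p = 0.00755). In PBS cultures Ankrd37 had 3.34, 3.49 and 4.12 TPM with BCKA and 1.63, 1.58 and 1.23 TPM with BCAA (0.91 ± 0.16 log2 (SE), adjusted p = 0.00381). None of these 3 genes overlapped between BCKA and BCAA libraries in either background. Ankrd37 lost its call without Free_add_BCAA_TGFb replicate 2 (adjusted p = 0.0992) or without Free_add_BCKA_TGFb replicate 1 (adjusted p = 0.0584) under TGF-β1.

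Both ends of the pathway were higher as well. The glucose importer Slc2a1 had 320.3, 349.7 and 392 TPM in BCKA and 229, 216 and 226 TPM in BCAA cultures with TGF-β1 (0.66 ± 0.08 log2 (SE), adjusted p = 0.00016). With PBS it had 191, 181 and 202 TPM in BCKA and 134, 118 and 128 TPM in BCAA cultures (0.59 ± 0.08 log2 (SE), adjusted p = 0.000273). The lactate exporter Slc16a3 had 332, 344 and 339.9 TPM in BCKA and 213, 196 and 216 TPM in BCAA cultures with TGF-β1 (0.70 ± 0.07 log2 (SE), adjusted p = 1.41e-05). With PBS it had 128, 129.5 and 138 TPM in BCKA and 78.5, 78.3 and 75.9 TPM in BCAA cultures (0.76 ± 0.07 log2 (SE), adjusted p = 3.38e-06). For both transporters the BCKA and BCAA libraries were fully separated. Slc16a1, the other monocarboxylate transporter of the set, was not called with TGF-β1 (-0.09 log2, adjusted p = 1) or with PBS (0.28 log2, adjusted p = 0.548).

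Among the 16 glycolytic enzymes, Pgam1 (phosphoglycerate mutase) and Eno1 (enolase) were called in both backgrounds. Eno1 had 2479, 2719 and 2689 TPM in BCKA and 1887, 1877 and 1808 TPM in BCAA cultures with TGF-β1 (0.50 ± 0.09 log2 (SE), adjusted p = 0.0104). With PBS it had 1528, 1572 and 1775 TPM in BCKA and 1055, 1029 and 1009.6 TPM in BCAA cultures (0.65 ± 0.09 log2 (SE), adjusted p = 0.000289). Hk2, the inducible hexokinase, was called with PBS, at 36.1, 34.3 and 32.1 TPM in BCKA and 16.5, 17.8 and 18.5 TPM in BCAA cultures (0.92 ± 0.11 log2 (SE), adjusted p = 4.61e-05). With TGF-β1 Hk2 differed by 0.30 log2, adjusted p = 0.815. Pgk1, phosphoglycerate kinase, had 582, 549 and 622 TPM in BCKA and 325, 327 and 307 TPM in BCAA cultures with PBS (0.87 ± 0.09 log2 (SE), adjusted p = 6.03e-06), and differed by 0.38 log2, adjusted p = 0.088 with TGF-β1. Pfkl, Aldoa, Pkm and Ldha were likewise called with PBS alone, and Pfkp with TGF-β1 alone. In no enzyme was the BCKA effect itself shown to differ between TGF-β1 and PBS: over the 32 genes, 0 were higher and 0 lower in that test by limma, with 4 at an unadjusted p under 0.05. There 0.0229% of all genes were called, 0.0229% higher and 0% lower. A fit of the 4 groups concerned called 3 of the 32. Eno1 lost its call without each library but Free_add_BCKA_TGFb replicate 1 (adjusted p from 0.053 to 0.0833) with TGF-β1, and Pfkp was no longer called whichever of the 6 libraries was left out (adjusted p from 0.0737 to 0.192) there. Ldha was no longer called whichever of the 6 libraries was left out (adjusted p from 0.0893 to 0.307), Pkm was no longer called whichever of the 6 libraries was left out (adjusted p from 0.0518 to 0.222) and Aldoa lost its call without Free_add_BCAA_PBS replicate 2 (adjusted p = 0.0537) or without Free_add_BCAA_PBS replicate 3 (adjusted p = 0.0855) or without Free_add_BCKA_PBS replicate 3 (adjusted p = 0.116), all with PBS.

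Of the remaining hypoxia-inducible genes, Vegfa was called in both backgrounds, at 486, 465 and 430.0 TPM in BCKA and 343, 321 and 355 TPM in BCAA cultures with TGF-β1 (0.44 ± 0.08 log2 (SE), adjusted p = 0.0104). With PBS it had 229, 228 and 229 TPM in BCKA and 149, 152 and 147 TPM in BCAA cultures (0.61 ± 0.08 log2 (SE), adjusted p = 0.000129). Vegfa lost its call without each library but Free_add_BCAA_TGFb replicate 3 and Free_add_BCKA_TGFb replicate 3 (adjusted p from 0.053 to 0.112) with TGF-β1. Ndrg1, a stress-responsive gene, was called with TGF-β1 only, at 98.4, 107 and 101 TPM in BCKA and 65.7, 61.6 and 61.7 TPM in BCAA cultures (0.69 ± 0.09 log2 (SE), adjusted p = 0.00016), and differed by 0.17 log2, adjusted p = 1 with PBS. Car9, the membrane carbonic anhydrase, was called with PBS only, at 6.77, 5.38 and 6.68 TPM in BCKA and 3.1, 2.95 and 2.95 TPM in BCAA cultures (0.86 ± 0.13 log2 (SE), adjusted p = 0.00126). With TGF-β1 Car9 differed by 0.53 log2, adjusted p = 0.159. Mxi1, a MYC antagonist, and Kdm3a, a histone demethylase, were called in neither background. With libraries centred on their medians, 15 of the 32 were higher with PBS and 11 with TGF-β1, and none was lower. Of all 13084 genes, 39 were then higher and 34 lower with PBS, and 26 higher and 3 lower with TGF-β1.

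**Figure D1:**
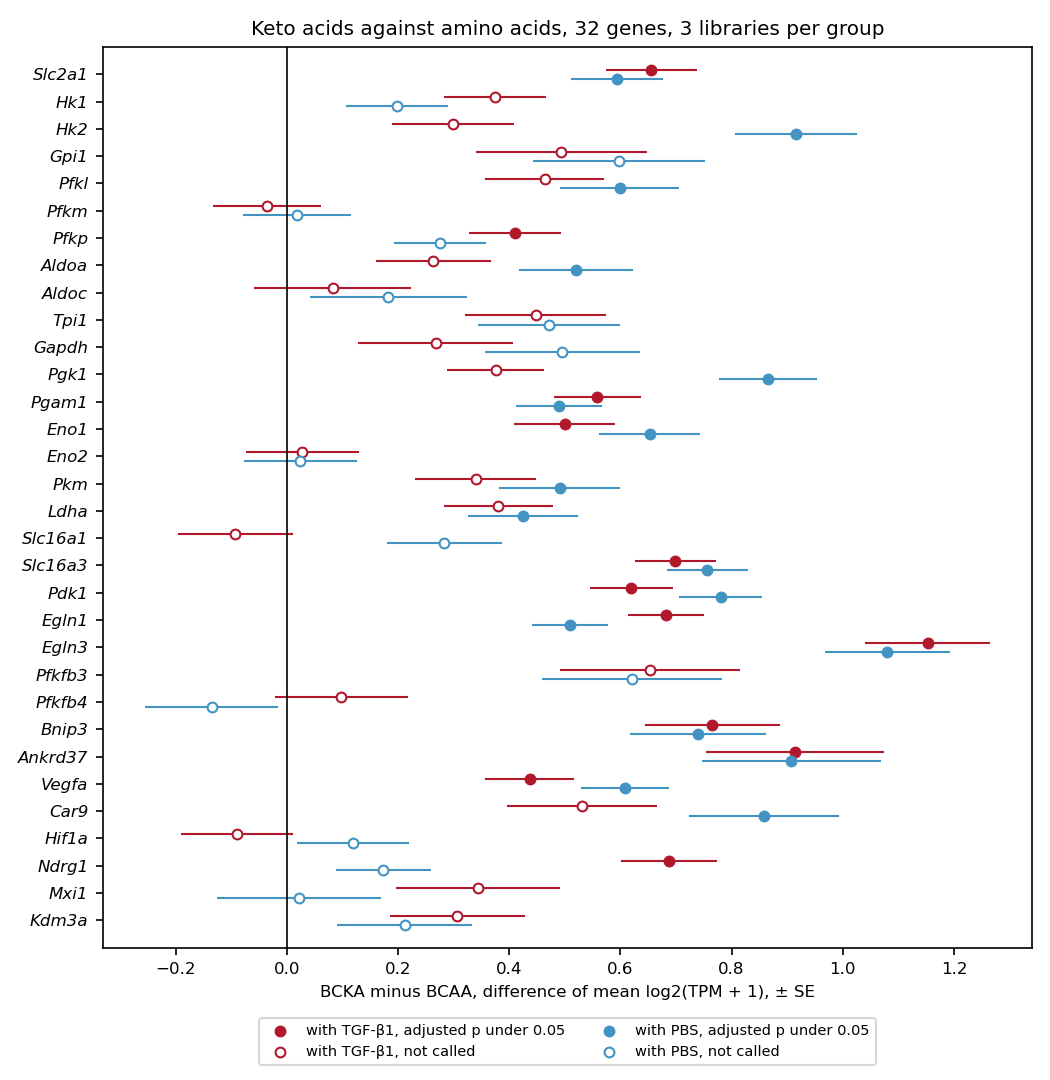
Difference of mean log2(TPM + 1) between BCKA and BCAA cultures (horizontal axis, with SE) for each of the 32 genes (rows), with TGF-β1 (red) and with PBS (blue), 3 libraries per group. Filled points were called at an adjusted p under 0.05, 12 with TGF-β1 and 17 with PBS, and all filled points lie right of 0, with Egln3 farthest at 1.15 and 1.08.

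Outside the 32 genes, 50 other HIF pathway and hypoxia-inducible genes, 48 of them tested, gave 10 higher and 0 lower with BCKA than with BCAA in PBS cells, and 6 higher and 0 lower with TGF-β1 (median 0.20 and 0.26 log2). Apln, the peptide ligand apelin, rose in both backgrounds: it averaged 56.6 ± 1.68 TPM with BCKA and 29.7 ± 3.05 TPM with BCAA (0.91 log2, adjusted p = 0.00263) in PBS cells. In cells with TGF-β1 it averaged 51.9 ± 3.01 TPM with BCKA and 27.8 ± 0.958 TPM with BCAA (0.88 log2, adjusted p = 0.00755) (SD, n = 3 each). Cox4i2, a hypoxic subunit of cytochrome oxidase, averaged 10.1 ± 1.46 TPM with BCKA and 4.77 ± 0.162 TPM with BCAA (0.93 log2, adjusted p = 0.00699) in PBS cells. Of 46 other glucose and pyruvate genes, 40 of them tested, 2 were higher and 0 lower in each background. They were the same 2, Gbe1 and Gys1, which branch and build glycogen: Gbe1, which both lists hold, averaged 37.6 ± 2.19 TPM with BCKA and 22.3 ± 1.87 TPM with BCAA (0.73 log2, adjusted p = 6.67e-05) in PBS cells. In cells with TGF-β1 Gbe1 averaged 62.1 ± 3.63 TPM with BCKA and 38.9 ± 0.796 TPM with BCAA (0.66 log2, adjusted p = 0.000632). The 32 genes and both lists together made up 28 of the 49 genes called higher with PBS and 19 of the 29 called higher with TGF-β1, and 0 of the 36 called lower with PBS and 0 of the 6 called lower with TGF-β1. Genes and lists were chosen with earlier results of these data known, so these shares are a description and not an independent test.

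The keto acid cultures also exceeded complete medium. With TGF-β1, 14 of 32 genes were higher and 0 lower in BCKA than in complete medium, where 0.611% of all genes were called, 0.405% higher and 0.206% lower. BCAA medium differed from complete medium in 0 of 32 by limma, with 0 at an unadjusted p under 0.05, where 0.0153% of all genes were called, 0% higher and 0.0153% lower. These comparisons share the complete-medium libraries. Egln3 led, at 102, 100.3 and 102 TPM in BCKA, 47.4, 44.8 and 43.2 TPM in BCAA and 43.7, 39.2 and 49 TPM in complete medium (BCKA against complete 1.19 ± 0.11 log2 (SE), adjusted p = 6.17e-06). Pfkfb3, which makes the activator of phosphofructokinase, had 129, 123 and 138 TPM in BCKA, 88.3, 70.8 and 88.9 TPM in BCAA and 80.8, 54.2 and 90.2 TPM in complete medium (BCKA against complete 0.81 ± 0.16 log2 (SE), adjusted p = 0.0132). Pfkfb3 lost its call without Complete_TGFb replicate 2 (adjusted p = 0.105) or without Free_add_BCKA_TGFb replicate 1 (adjusted p = 0.0506) or without Free_add_BCKA_TGFb replicate 3 (adjusted p = 0.0958). A fit of the BCKA and complete-medium groups alone called 1 of the 32, against 14 when the spread was estimated over all 8 groups. The same restriction for BCKA against BCAA with TGF-β1 called 20, all higher. The shares of all genes called in these restricted fits are not given here, so these counts have no background beside them.

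Against the BCAA-free medium itself, 14 of 32 genes were higher and 0 lower with BCKA in PBS cells, where 0.665% of all genes were called, 0.397% higher and 0.268% lower. Returning BCAA gave 0 higher and 0 lower by limma, with 7 at an unadjusted p under 0.05, where 0.26% of all genes were called, 0.122% higher and 0.138% lower. Both comparisons share the BCAA-free libraries. Hk2 stood at 36.1, 34.3 and 32.1 TPM with BCKA, 16.5, 17.8 and 18.5 TPM with BCAA and 20.6, 18.2 and 21.2 TPM without either (0.74 ± 0.11 log2 (SE), adjusted p = 0.000735 for BCKA against BCAA-free). Only the BCKA libraries were high. The 8 fibroblast markers summed to less with BCKA, 18946 to 20122 TPM with BCKA and 24542 to 26264 TPM with BCAA in PBS cells, and 31934 to 37631 TPM with BCKA and 44804 to 46761 TPM with BCAA in cells with TGF-β1. Of these 8, 0 were called higher and 1 lower with PBS, and 0 higher and 0 lower with TGF-β1 by limma, where 1 had an unadjusted p under 0.05; their part in the differences above was not tested.

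**Figure D2:**
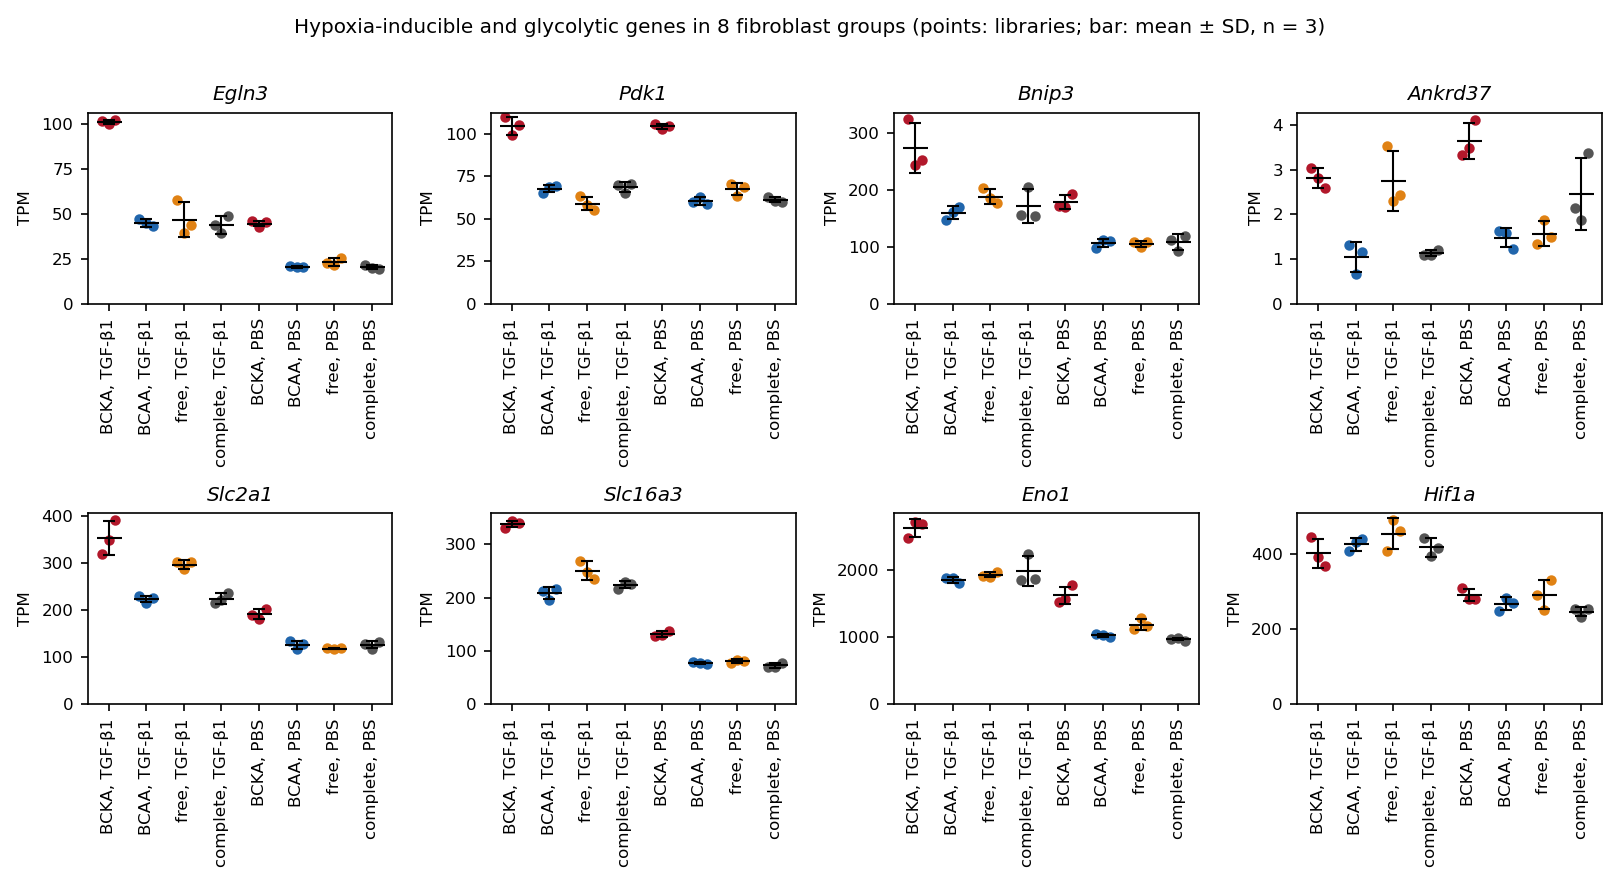
TPM (vertical axes, from 0) of 8 genes in the 8 fibroblast groups, with TGF-β1 at left and PBS at right; points are libraries and bars the mean ± SD (n = 3). In Egln3, Pdk1, Bnip3, Slc2a1, Slc16a3 and Eno1 the BCKA libraries (red) lie above the BCAA libraries (blue) in both backgrounds, while Hif1a overlaps.

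TGF-β1 raised most of the set in every medium. In complete medium 22 of 32 genes were higher and 6 lower with TGF-β1 than with PBS, where 48.6% of all genes were called, 12.2% higher and 36.4% lower. With BCKA returned the counts were 21 higher and 4 lower, where 45.8% of all genes were called, 11.5% higher and 34.3% lower. With BCAA returned they were 22 higher and 4 lower, where 44.8% of all genes were called, 11.5% higher and 33.2% lower. In BCAA-free medium they were 21 higher and 5 lower, where 64.1% of all genes were called, 29.2% higher and 34.9% lower. The median of the 32 in complete medium was 0.75 log2, beside -0.20 log2 over all genes. In each medium all 4 of Slc2a1, Slc16a3, Hk2 and Vegfa were higher.

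In complete medium the aldolase isoform Aldoc had 65.8, 69 and 64.2 TPM with TGF-β1, against 14, 14.2 and 15.7 TPM with PBS (2.11 ± 0.14 log2 (SE), adjusted p = 3.95e-11). Slc16a3 had 217, 230.0 and 225 TPM with TGF-β1, against 70.4, 70.9 and 77.4 TPM with PBS (1.61 ± 0.07 log2 (SE), adjusted p = 5.31e-14). Hk2 had 62.4, 45.3 and 58.4 TPM with TGF-β1, against 16.9, 17.6 and 17.5 TPM with PBS (1.61 ± 0.11 log2 (SE), adjusted p = 6.19e-11). In all 3 genes the libraries with TGF-β1 were the high ones. Pgk1, Car9, Vegfa and Pkm (pyruvate kinase) rose by 1.43, 1.43, 1.30 and 1.18 log2, and Egln3 by 1.08 log2. The hypoxia-inducible genes did not all move together: Kdm3a fell to 31.5, 25.4 and 32.6 TPM with TGF-β1, against 58.1, 55.8 and 55.5 TPM with PBS (-0.91 ± 0.12 log2 (SE), adjusted p = 2.37e-06). Ndrg1 (-0.79 log2), Pfkfb3 (-0.71 log2) and Ankrd37 (-0.68 log2) fell as well. Pdk1, called for BCKA in both backgrounds, was not called for TGF-β1 in complete medium (0.16 log2, adjusted p = 0.0753). Of the 40 tested other glucose and pyruvate genes 11 were higher and 12 lower in complete medium. Of the 48 tested other HIF pathway genes 17 were higher and 17 lower.

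BCAA removal moved genes of the set in opposite directions in cells with TGF-β1. With PBS, 0 of 32 genes were higher and 0 lower in BCAA-free than in complete medium by limma, where 0.91% of all genes were called, 0.573% higher and 0.336% lower. Without adjustment, 10 had a p under 0.05, and a fit of those 2 groups alone called 1. With TGF-β1, 11 were higher and 8 lower, a share near the background, where 60.3% of all genes were called, 35.5% higher and 24.8% lower. With libraries centred on their medians 8 were higher and 10 lower, where 3945 of all 13084 genes were higher and 3961 lower. A fit of only these 2 groups called 7 higher and 2 lower. The effect of TGF-β1 itself differed between BCAA-free and complete medium, by the test of that difference, in 15 of 32 genes, 9 higher and 6 lower, again near the background, where 47.6% of all genes were called, 29.2% higher and 18.4% lower. After centring these were 7 higher and 8 lower, where 3069 of all 13084 genes were higher and 3058 lower. Without Free_TGFb replicate 1, the counts with TGF-β1 were 10 higher and 7 lower, and 11 and 7 for the difference of effects.

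Of the genes that rose, Hk2 rose most, to 238, 194 and 197 TPM in BCAA-free medium with TGF-β1, against 62.4, 45.3 and 58.4 TPM in complete medium (1.91 ± 0.11 log2 (SE), adjusted p = 2.14e-12). Vegfa had 672, 623 and 766 TPM without BCAA, against 330.2, 312 and 336 TPM in complete medium (1.07 ± 0.08 log2 (SE), adjusted p = 1.6e-10). Ndrg1 had 132, 171 and 166 TPM without BCAA, against 65.3, 70.7 and 64.3 TPM in complete medium (1.21 ± 0.09 log2 (SE), adjusted p = 7.6e-11). In these 3 genes every BCAA-free library with TGF-β1 was above all other culture libraries. Aldoc went the other way and nearly vanished, with 1.54, 2.87 and 3.27 TPM without BCAA, against 65.8, 69 and 64.2 TPM in complete medium (-4.28 ± 0.14 log2 (SE), adjusted p = 1.89e-16). Car9 had 2.28, 2.05 and 2.16 TPM without BCAA, against 8.85, 7.71 and 9.49 TPM in complete medium (-1.61 ± 0.13 log2 (SE), adjusted p = 1.13e-09). The BCAA-free libraries with TGF-β1 were thus lower than the BCAA-free libraries with PBS for Aldoc (12.3, 13.4 and 11 TPM) and for Car9 (3.4, 3.92 and 4.6 TPM), so that TGF-β1 lowered in this medium what it raised in the others (Aldoc -1.93 log2, adjusted p = 6.98e-11; Car9 -0.65 log2, adjusted p = 0.000262).

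Ankrd37, Slc16a1 and Kdm3a rose without BCAA under TGF-β1 by 0.81, 0.72 and 0.72 log2. Among the enzymes that follow aldolase in the pathway, Gapdh, Pgk1 and Tpi1 fell, Pkm rose (0.30 log2), and Pgam1, Eno1, Eno2 and Ldha were not called. Gapdh had 1186, 2006 and 1822 TPM without BCAA, against 2248, 2623 and 2135 TPM in complete medium (-0.51 ± 0.14 log2 (SE), adjusted p = 0.00313). Pgk1 had 651, 607 and 632 TPM without BCAA, against 759, 951 and 763 TPM in complete medium (-0.38 ± 0.09 log2 (SE), adjusted p = 0.000769). In a fit of only these 2 groups neither was called (adjusted p = 0.146 for Gapdh and 0.118 for Pgk1), nor were Tpi1 (0.299) and Pkm (0.323). Tpi1 lost its call without Complete_TGFb replicate 2 (adjusted p = 0.216) or without Free_TGFb replicate 1 (adjusted p = 0.301). Pkm lost its call without Complete_TGFb replicate 1 (adjusted p = 0.0942) or without Free_TGFb replicate 1 (adjusted p = 0.0986) or without Free_TGFb replicate 3 (adjusted p = 0.0622). Tpi1 was also not called without the filter on low values (adjusted p = 0.0642), nor Pkm with centred libraries (adjusted p = 0.22). Gapdh was lowest in replicate 1, and without that library its difference was -0.28 log2, adjusted p = 0.0143. Leaving out Free_TGFb replicate 1 gave Hk2 1.81 log2, adjusted p = 8.53e-13, Aldoc -4.05 log2, adjusted p = 3e-19, Car9 -1.64 log2, adjusted p = 1.53e-09, Vegfa 1.08 log2, adjusted p = 4.1e-11, and Ndrg1 1.32 log2, adjusted p = 9.33e-14. Of the 40 tested other glucose and pyruvate genes 11 were higher and 18 lower, led by Pdk4, a relative of Pdk1, at 39.4 ± 5.92 TPM without BCAA and 193 ± 17.5 TPM in complete medium (-2.27 log2, adjusted p = 2.85e-14). Of the 48 tested other HIF pathway genes 15 were higher and 18 lower, led by Cox4i2 at 1.52 ± 0.421 TPM without BCAA and 16.9 ± 5.2 TPM in complete medium (-2.80 log2, adjusted p = 8.5e-12).

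Returning BCAA or BCKA under TGF-β1 brought Aldoc and Hk2 back towards their complete-medium levels. Relative to BCAA-free medium, BCKA gave 19 higher and 4 lower of 32, where 58.4% of all genes were called, 25.1% higher and 33.4% lower. BCAA gave 7 higher and 12 lower, a share near the background, where 58.3% of all genes were called, 25% higher and 33.3% lower. After centring, BCAA gave 9 higher and 8 lower, where 3886 of all 13084 genes were higher and 3780 lower. A fit of only these 2 groups gave 3 higher and 8 lower. The 2 comparisons share the BCAA-free libraries. Aldoc returned to 71.1, 65.1 and 70.3 TPM with BCKA and 65.9, 64.8 and 64 TPM with BCAA, and Hk2 to 68.1, 73.8 and 67.5 TPM with BCKA and 59.1, 51.4 and 59.4 TPM with BCAA. Both media overlapped complete medium for Aldoc. Without Free_TGFb replicate 1 the counts were 19 and 6 with BCKA, and 7 and 14 with BCAA.

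**Figure D3:**
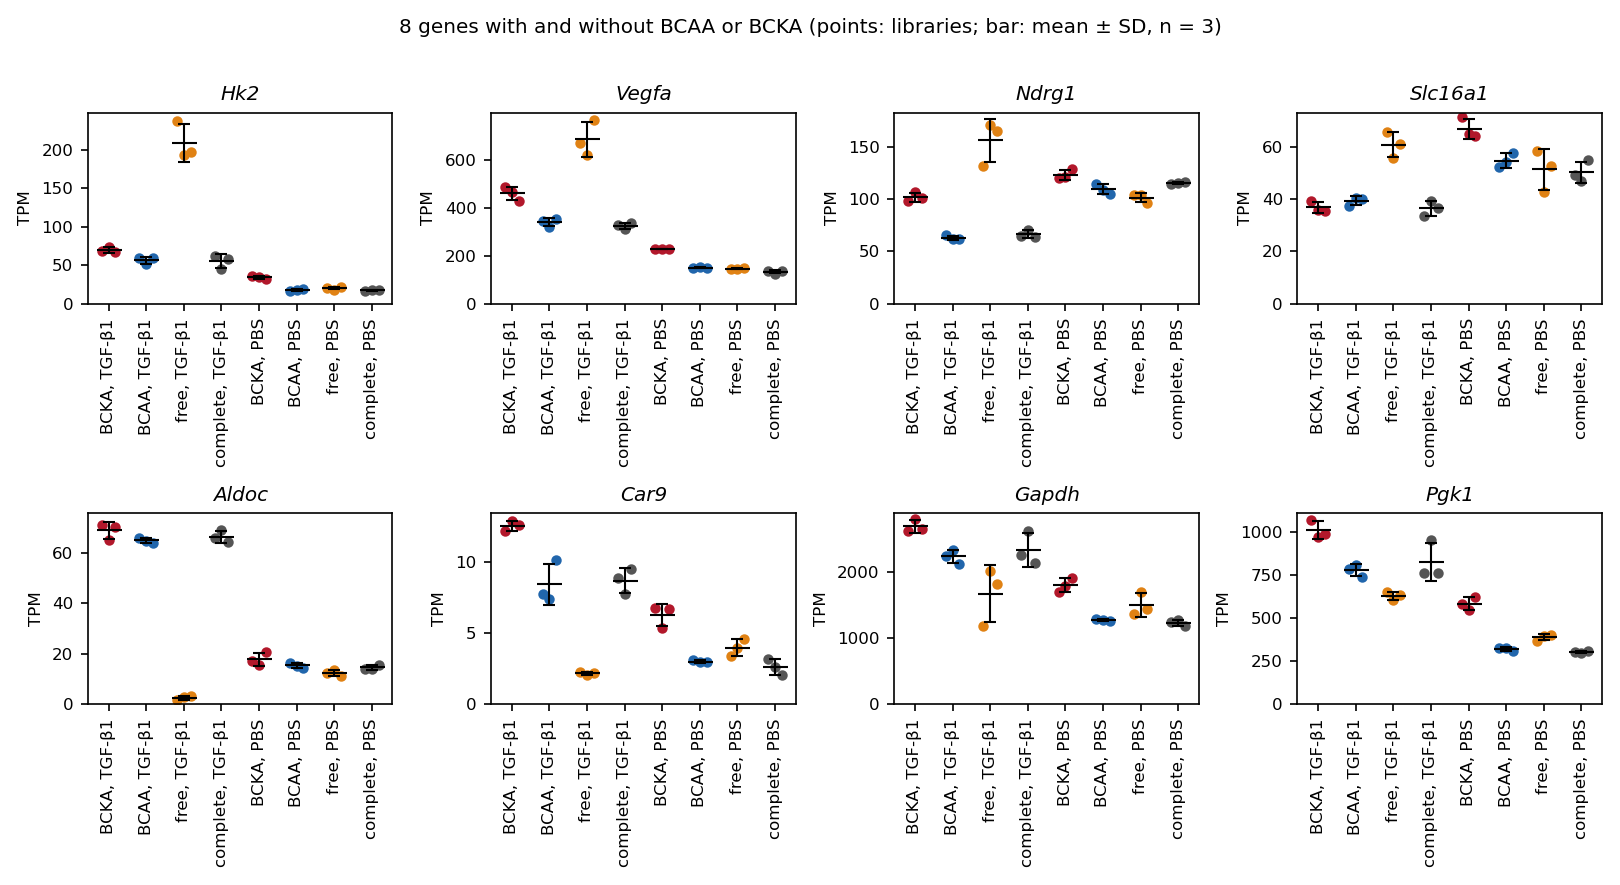
TPM (vertical axes, from 0) of 8 genes in the 8 fibroblast groups; points are libraries and bars the mean ± SD (n = 3). In BCAA-free medium with TGF-β1 (orange) Hk2, Vegfa and Ndrg1 are above every other group, Aldoc is below every other group, Car9 is below complete medium with TGF-β1, and Gapdh has 1 low library (replicate 1).

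The share of each isoform in its family's summed TPM, a level scaled by transcript length, also differed between media. Hk2 made up 59.3 ± 1.25% of Hk1 plus Hk2 in BCAA-free medium with TGF-β1, 26.4 ± 1.17% with BCKA, 27.4 ± 1.29% with BCAA and 27.6 ± 2.5% in complete medium (SD, n = 3 each). In PBS cells the Hk2 share was 19.4 ± 1.31% with BCKA, 12.5 ± 1.09% with BCAA, 13.6 ± 0.787% without either and 12.5 ± 0.149% in complete medium. Egln3 made up 39.3 ± 0.501% of Egln1 plus Egln3 with BCKA and 31.7 ± 2.23% with BCAA under TGF-β1, and 26.8 ± 0.691% with BCKA and 19.4 ± 0.28% with BCAA under PBS. Slc16a3 made up 90.2 ± 0.639% of Slc16a1 plus Slc16a3 with BCKA and 84.1 ± 1.13% with BCAA under TGF-β1, and 59.2 ± 0.861% in complete medium with PBS. Summed over the 16 enzymes, glycolytic transcripts came to 15601 ± 311 TPM with BCKA, 12069.5 ± 306 TPM with BCAA, 12395 ± 240.1 TPM without either and 12764 ± 1311 TPM in complete medium under TGF-β1. The PBS cultures had 10038 ± 729 TPM with BCKA, 6919 ± 188 TPM with BCAA, 7657 ± 563 TPM without either and 6604 ± 72.6 TPM in complete medium. The 3 sums with BCKA did not overlap those with BCAA in either background, and BCAA-free and complete medium overlapped under TGF-β1 although single enzymes moved in opposite directions.

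In whole lungs the same genes were measured in a mixture of cell types, where fewer cells of a type and less RNA per cell cannot be told apart. Because the extraction label names heart tissue, 8 cardiac muscle markers were summed. They came to 52.6 to 84.6 TPM in BLM_BCAA, 91.3 to 201 TPM in BLM_NW and 185 to 337 TPM in PBS_NW. The diet lungs had 280 to 586 TPM in BLM_BCAA_free, 63.5 to 115 TPM in BLM_ND and 946 to 2086 TPM in PBS_ND. The BT2 experiment had 241 to 348 TPM in BLM_BT2, 100 to 126 TPM in BLM_DMSO and 653 to 1636 TPM in PBS_DMSO. The part of these markers was not tested. Gapdh was at 22.4 to 80.9 TPM in lungs and 1179 to 2803 TPM in cultures, in tables that were made separately. The culture table listed 26264 genes and no mitochondrial transcripts, which held 3.67 to 17.3% of TPM in lungs. Levels in cultures and lungs thus rest on different gene sets and were not compared. Gapdh, Eno1, Tpi1, Pgam1, Ldha, Pkm and Aldoa have near-identical copies in the mouse genome, and the sources used here do not say how reads were shared among them, so their levels are uncertain.

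In the water experiment, bleomycin raised 12 of 32 genes and lowered 3, where 21.9% of all genes were called, 14.8% higher and 7.08% lower. Ankrd37 was at 28.2, 21.6 and 22 TPM in BLM_NW, against 8.72, 7.34 and 8.54 TPM in PBS_NW (1.43 ± 0.19 log2 (SE), adjusted p = 0.00056). Pgam1 had 166, 135 and 136 TPM in BLM_NW, against 50.8, 75.2 and 67.1 TPM in PBS_NW (1.18 ± 0.19 log2 (SE), adjusted p = 0.00181). Eno1 had 142, 145 and 141 TPM in BLM_NW, against 63.9, 68 and 65.7 TPM in PBS_NW (1.11 ± 0.12 log2 (SE), adjusted p = 0.000164). The glucose importer ran against them: Slc2a1 had 27.7, 30.5 and 30.3 TPM in BLM_NW, against 74.9, 81.9 and 84.6 TPM in PBS_NW (-1.42 ± 0.14 log2 (SE), adjusted p = 0.000112). Hk2 (-0.68 log2, adjusted p = 0.0189) and Bnip3 (-0.63 log2, adjusted p = 0.0263) fell as well. In all these genes the BLM_NW lungs did not overlap the PBS_NW lungs. Hk2 lost its call without PBS_NW replicate 3 (adjusted p = 0.0713) or without BLM_NW replicate 1 (adjusted p = 0.0536) or without BLM_NW replicate 3 (adjusted p = 0.0666). Bnip3 lost its call without PBS_NW replicate 3 (adjusted p = 0.0871) or without BLM_NW replicate 1 (adjusted p = 0.0594) or without BLM_NW replicate 3 (adjusted p = 0.0875). Markers moved beside them: 7 of 12 macrophage and monocyte markers were higher and 1 lower (summed 15438 to 21605 TPM in BLM_NW, 8489 to 11719.8 TPM in PBS_NW). Of 8 fibroblast markers 5 were higher and 0 lower (summed 1053 to 1499 TPM in BLM_NW, 297 to 495 TPM in PBS_NW). Of 10 cell division genes 10 were higher, and 6 ciliated and club cell markers summed to 51317 to 111318 TPM in BLM_NW and 140170.0 to 250398 TPM in PBS_NW. Their part in these differences was not tested. Of the 48 tested other HIF pathway genes 9 were higher and 3 lower, and of the 43 tested other glucose and pyruvate genes 3 and 6.

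BCAA in the drinking water of bleomycin mice was accompanied by 5 higher and 0 lower of 32 genes, where 1.2% of all genes were called, 0.872% higher and 0.331% lower. Ankrd37 was at 66.9, 42.1 and 62.7 TPM in BLM_BCAA, against 28.2, 21.6 and 22 TPM in BLM_NW (1.21 ± 0.19 log2 (SE), adjusted p = 0.0193). Eno1 was at 247, 222 and 270.3 TPM in BLM_BCAA, against 142, 145 and 141 TPM in BLM_NW (0.78 ± 0.12 log2 (SE), adjusted p = 0.0178). Pkm was at 499.6, 491 and 530.3 TPM in BLM_BCAA, against 319, 323 and 329.7 TPM in BLM_NW (0.64 ± 0.11 log2 (SE), adjusted p = 0.0265). Every BLM_BCAA lung exceeded every BLM_NW lung in these genes, as in Slc2a1 (0.78 ± 0.14 log2 (SE), adjusted p = 0.0278) and in the phosphofructokinase Pfkl (0.58 ± 0.12 log2 (SE), adjusted p = 0.0478). The median of the 32 was 0.41 log2, beside 0.03 log2 over all genes. The 5 calls rested on few animals. Leaving out BLM_NW replicate 1, BLM_NW replicate 3, BLM_BCAA replicate 1, BLM_BCAA replicate 2 or BLM_BCAA replicate 3 left 2, 0, 1, 2 and 0 calls, and a fit of only these 2 groups left 0. Ankrd37 lost its call without BLM_NW replicate 3 (adjusted p = 0.0972) or without BLM_BCAA replicate 1 (adjusted p = 0.0563) or without BLM_BCAA replicate 3 (adjusted p = 0.0873). Eno1 lost its call without BLM_NW replicate 3 (adjusted p = 0.0924) or without BLM_BCAA replicate 3 (adjusted p = 0.0838). Of 7 alveolar type 2 markers 2 were lower (summed 27928 to 33555 TPM in BLM_BCAA, 34414 to 48094 TPM in BLM_NW). Of 8 fibroblast markers 2 were higher and 1 lower (summed 2084 to 2791 TPM in BLM_BCAA, 1053 to 1499 TPM in BLM_NW). Of 12 macrophage markers 1 was higher. The part of these markers was not tested. None of the other glucose and pyruvate genes or other HIF pathway genes was called by limma; at an unadjusted p under 0.05 there were 6 of the 43 tested glucose and pyruvate genes and 14 of the 48 tested HIF pathway genes.

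In the diet experiment, 22 of 32 genes were higher and 0 lower with bleomycin, where 60.9% of all genes were called, 48.7% higher and 12.3% lower. The median over all genes was itself 0.56 log2. With libraries centred on their medians 12 of the 32 were higher and 3 lower. Of all 18593 genes, 4515 were then higher and 4696 lower, so the called share was near the background. Ankrd37 again moved most, at 150.4, 59.7, 144 and 88.9 TPM in BLM_ND, against 7.12, 5.97, 10.6 and 6.18 TPM in PBS_ND (3.66 ± 0.30 log2 (SE), adjusted p = 5.02e-07). Pfkfb3 had 52.9, 65.5, 53.8 and 36.3 TPM in BLM_ND, against 5.06, 3.75, 9.17 and 6.38 TPM in PBS_ND (2.93 ± 0.25 log2 (SE), adjusted p = 7.58e-07). Hif1a had 94.1, 80.8, 80.5 and 57.5 TPM in BLM_ND, against 13.9, 16.2, 24.2 and 12.2 TPM in PBS_ND (2.19 ± 0.27 log2 (SE), adjusted p = 1.69e-05). All 4 BLM_ND lungs were above all 4 PBS_ND lungs in these genes and in Vegfa (2.17 log2) and Ndrg1 (1.76 log2). For Pfkfb3, Hif1a and Vegfa, PBS_ND was also below the PBS lungs of the other experiments. Pfkfb3 was at 24.6 to 45.5 TPM in PBS_NW and 41.9 to 50.3 TPM in PBS_DMSO. Vegfa was at 74.3 to 149 TPM in PBS_ND and 341 to 568 TPM in BLM_ND, beside 369 to 502 TPM in PBS_NW and 601 to 711 TPM in PBS_DMSO. Ankrd37 in PBS_ND overlapped both other PBS groups, and Ndrg1 overlapped PBS_NW only. Of 8 fibroblast markers 7 were higher and 0 lower (summed 2830.5 to 3603 TPM in BLM_ND, 271 to 398 TPM in PBS_ND). The PBS_ND lungs differed in their markers as described above, and 12 of 12 macrophage markers (summed 15500.2 to 22451 TPM in BLM_ND, 1233 to 1890.0 TPM in PBS_ND) and 10 of 10 cell division genes were higher with bleomycin; their part was not tested. Of the 48 tested other HIF pathway genes 37 were higher and 1 lower (26 and 7 after centring), led by Lox, a collagen crosslinking enzyme, at 425 ± 100 TPM in BLM_ND and 7.2 ± 1.88 TPM in PBS_ND (5.70 log2, adjusted p = 1.21e-08).

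On the BCAA-free diet, 0 of 32 genes were higher and 5 lower than in bleomycin lungs on normal diet. The called share was near the background, where 10.1% of all genes were called, 4.02% higher and 6.12% lower. Ankrd37 was at 26.7, 21.7, 15.9 and 14.5 TPM in BLM_BCAA_free, against 150.4, 59.7, 144 and 88.9 TPM in BLM_ND (-2.38 ± 0.30 log2 (SE), adjusted p = 0.000478). Eno1 was at 161, 166, 162 and 141 TPM in BLM_BCAA_free, against 380.1, 239, 303 and 284 TPM in BLM_ND (-0.92 ± 0.20 log2 (SE), adjusted p = 0.012). Pkm was at 357, 349, 204 and 299 TPM in BLM_BCAA_free, against 714, 483, 581 and 519 TPM in BLM_ND (-0.94 ± 0.22 log2 (SE), adjusted p = 0.0171). No BLM_BCAA_free lung reached the lowest BLM_ND lung in these genes, nor in Ndrg1 (-0.87 ± 0.15 log2 (SE), adjusted p = 0.00332) or Ldha (-0.60 ± 0.16 log2 (SE), adjusted p = 0.0354). Pkm lost its call without BLM_ND replicate 1 (adjusted p = 0.0654) or without BLM_ND replicate 3 (adjusted p = 0.0529). Ldha lost its call without each library but BLM_BCAA_free replicate 3 and BLM_ND replicate 2 (adjusted p from 0.0523 to 0.121). Without BLM_BCAA_free replicate 3, the lung that stood apart, 8 genes were lower and 0 higher, and Ankrd37 differed by -2.29 log2, adjusted p = 0.000592, Eno1 by -0.93 log2, adjusted p = 0.0101, and Pkm by -0.76 log2, adjusted p = 0.0162. Without BLM_ND replicate 1 or BLM_ND replicate 3, 3 genes were lower. Marker genes moved beside them: 9 of 10 cell division genes were lower (summed 33.5 to 45.1 TPM in BLM_BCAA_free, 116 to 175 TPM in BLM_ND). Further, 5 of 8 fibroblast markers were lower and 1 higher (summed 1168 to 2083 TPM in BLM_BCAA_free, 2830.5 to 3603 TPM in BLM_ND). In contrast, 7 of 7 alveolar type 2 markers were higher (summed 39817 to 59067 TPM in BLM_BCAA_free, 18966 to 26667 TPM in BLM_ND), and 2 of 12 macrophage markers were lower and 1 higher. Their part was not tested. Of the 48 tested other HIF pathway genes 3 were higher and 5 lower.

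In the BT2 experiment, 13 of 32 genes were higher and 1 lower with bleomycin, where 30.6% of all genes were called, 17.3% higher and 13.3% lower. Ankrd37 was at 82.6, 98.5 and 89.9 TPM in BLM_DMSO, against 8, 7.98 and 7.55 TPM in PBS_DMSO (3.37 ± 0.63 log2 (SE), adjusted p = 0.00395). Eno1 was at 325, 302 and 305 TPM in BLM_DMSO, against 89.9, 75.3 and 88.1 TPM in PBS_DMSO (1.87 ± 0.19 log2 (SE), adjusted p = 0.000218). Pkm was at 622, 633 and 531 TPM in BLM_DMSO, against 235, 198 and 208 TPM in PBS_DMSO (1.48 ± 0.19 log2 (SE), adjusted p = 0.000667). The groups did not overlap in any of the 3. Pgam1, Ldha and Gapdh rose by 1.54, 1.05 and 1.13 log2. Vegfa alone fell, to 61.1, 495 and 114 TPM in BLM_DMSO, against 601, 711 and 602 TPM in PBS_DMSO (-2.06 ± 0.59 log2 (SE), adjusted p = 0.0261), with BLM_DMSO replicate 2 nearest to the PBS_DMSO lungs. Vegfa lost its call without each library but BLM_DMSO replicate 2 (adjusted p from 0.0636 to 0.0767). Without PBS_DMSO replicate 3, 8 of the 32 were called, all higher. Of 8 fibroblast markers 6 were higher and 1 lower (summed 2686 to 3347 TPM in BLM_DMSO, 438 to 456 TPM in PBS_DMSO). In BLM_DMSO 8 of 12 macrophage markers and 10 of 10 cell division genes were higher, and 6 of 7 alveolar type 2 markers were lower (summed 2293 to 15570.3 TPM in BLM_DMSO, 47056 to 59972 TPM in PBS_DMSO), and their part was not tested.

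With BT2, 2 of 32 genes were higher and 3 lower than with DMSO, a share near the background, where 11.8% of all genes were called, 6.34% higher and 5.41% lower. With libraries centred on their medians, 3 were higher and 6 lower, where 1652 of all 18151 genes were higher and 1663 lower. Eno1 had 153, 205 and 121 TPM in BLM_BT2, against 325, 302 and 305 TPM in BLM_DMSO (-0.99 ± 0.19 log2 (SE), adjusted p = 0.017). Hif1a had 30.9, 39.1 and 29 TPM in BLM_BT2, against 60.1, 77.7 and 53.5 TPM in BLM_DMSO (-0.92 ± 0.18 log2 (SE), adjusted p = 0.0198). Pkm had 431, 424 and 283 TPM in BLM_BT2, against 622, 633 and 531 TPM in BLM_DMSO (-0.67 ± 0.19 log2 (SE), adjusted p = 0.0475). The BLM_BT2 lungs were below the BLM_DMSO lungs in these genes and above them in Aldoc (1.19 ± 0.34 log2 (SE), adjusted p = 0.0488) and in Pfkfb4, a relative of Pfkfb3 (1.04 ± 0.21 log2 (SE), adjusted p = 0.0194). Ankrd37 spread from 19.0 to 196.8 TPM among the BLM_BT2 lungs, wider than the BLM_DMSO lungs on both sides, and was not called (-0.58 log2, adjusted p = 0.542). The calls depended on single lungs: 3 were left without BLM_DMSO replicate 1, 0 without BLM_BT2 replicate 1, 0 without BLM_BT2 replicate 3, 8 without BLM_DMSO replicate 2, and 0 in a fit of only these 2 groups. Eno1 lost its call without BLM_BT2 replicate 1 (adjusted p = 0.0621) or without BLM_BT2 replicate 3 (adjusted p = 0.0732). Hif1a lost its call without BLM_BT2 replicate 1 (adjusted p = 0.0701) or without BLM_BT2 replicate 3 (adjusted p = 0.0907). Of 8 fibroblast markers 1 was higher and 4 were lower (summed 795 to 2074 TPM in BLM_BT2, 2686 to 3347 TPM in BLM_DMSO). Of 9 lymphocyte markers 4 were higher and 0 lower (summed 93 to 313 TPM in BLM_BT2, 7.99 to 92.2 TPM in BLM_DMSO). Of 12 macrophage markers 5 were lower (summed 20714 to 23354 TPM in BLM_BT2, 25171 to 29196 TPM in BLM_DMSO) and 7 of 7 alveolar type 2 markers were higher (summed 43402 to 76019.9 TPM in BLM_BT2, 2293 to 15570.3 TPM in BLM_DMSO), and their part was not tested. Of the 48 tested other HIF pathway genes 3 were higher and 2 lower.

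**Figure D4:**
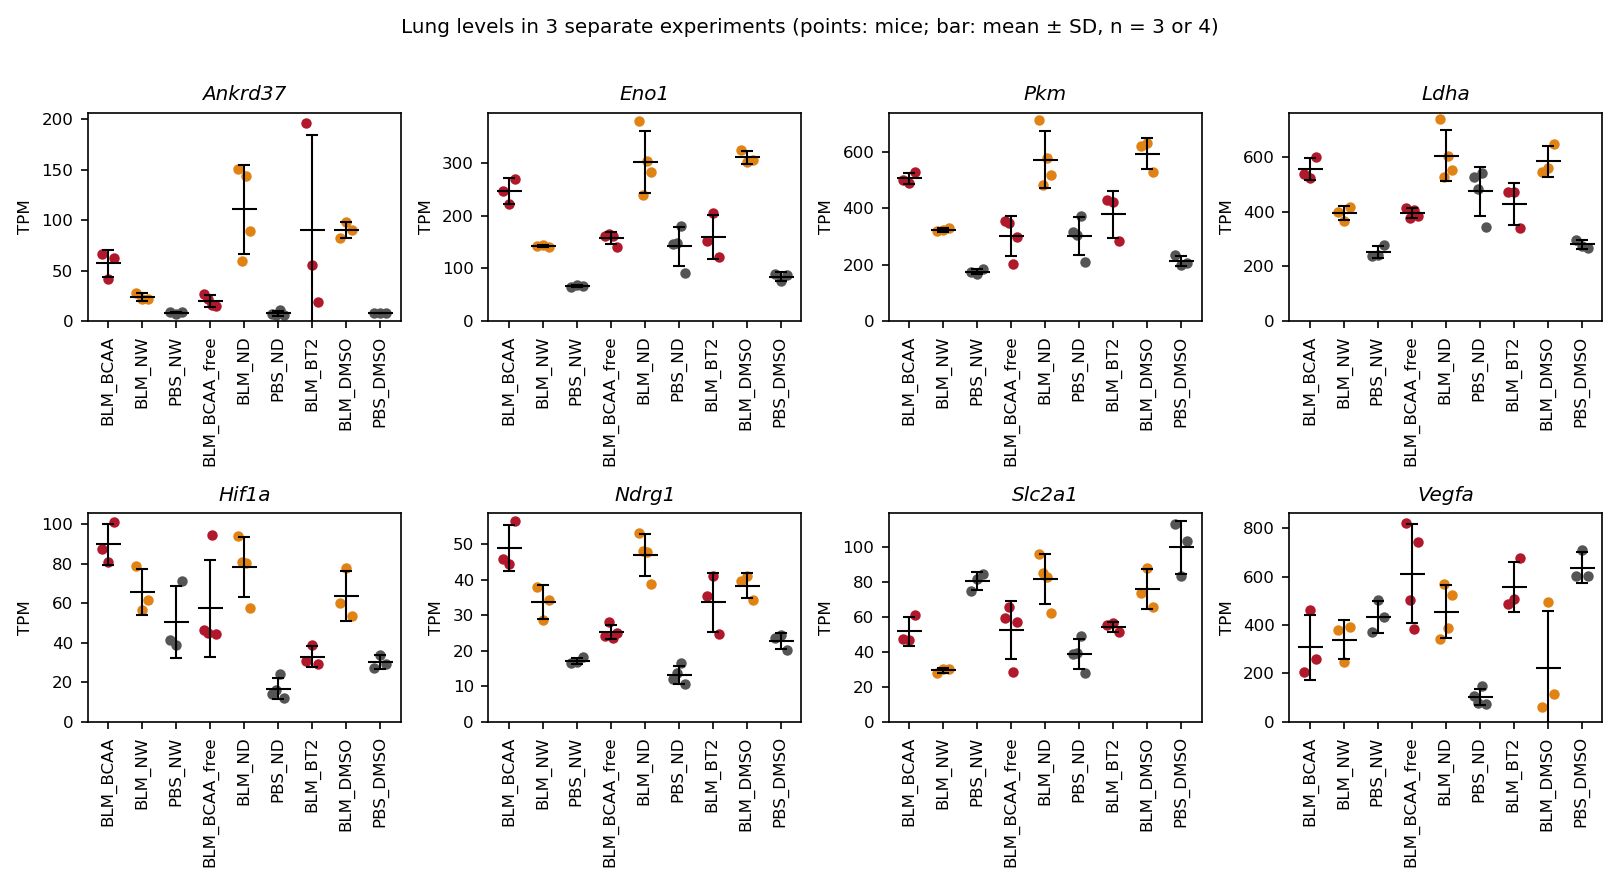
TPM (vertical axes, from 0) of 8 genes in the 9 lung groups of 3 separate experiments, each with the treated bleomycin group, the bleomycin group and the PBS group from left to right; points are mice and bars the mean ± SD (n = 3 or 4; bars that would pass below 0 end at the axis). Ankrd37 is above its PBS group in all bleomycin lungs on normal water, normal diet or DMSO, is higher still in BLM_BCAA, and is lower in BLM_BCAA_free than in BLM_ND.

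Across the experiments, Ankrd37, Eno1 and Pkm were the genes of the set called in each of the bleomycin comparisons and in both the water and diet treatments. Their bleomycin differences were 1.43, 3.66 and 3.37 log2 for Ankrd37, 1.11, 1.11 and 1.87 log2 for Eno1, and 0.89, 0.94 and 1.48 log2 for Pkm in the water, diet and BT2 experiments. The treated bleomycin lungs differed from untreated bleomycin lungs by 1.21 (BCAA water) and -2.38 (BCAA-free diet) log2 for Ankrd37, by 0.78 and -0.92 log2 for Eno1, and by 0.64 and -0.94 log2 for Pkm. BCAA water and BCAA-free diet thus stood on opposite sides of 0 in these genes, which were picked by their calls. The experiments differ in day, table and mice, and the difference between them was not tested. The BCAA water calls fell to 0 without BLM_NW replicate 3 or without BLM_BCAA replicate 3, and the called share on the diet was near the background. With BT2, Eno1 and Pkm were lower as well, and Ankrd37 was not called. In each experiment the bleomycin and treatment differences share the bleomycin lungs. Summed over the 16 glycolytic enzymes, the lungs had 3101 ± 230.1 TPM in BLM_BCAA, 2197 ± 60.4 TPM in BLM_NW and 1598 ± 65.1 TPM in PBS_NW (SD, n = 3 each). They had 2232 ± 355 TPM in BLM_BCAA_free, 3333 ± 469.5 TPM in BLM_ND and 2614 ± 507 TPM in PBS_ND (n = 4 each), and in the BT2 experiment 2606 ± 429 TPM in BLM_BT2, 3378 ± 24.8 TPM in BLM_DMSO and 2006 ± 126 TPM in PBS_DMSO (n = 3 each).

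**Figure D5:**
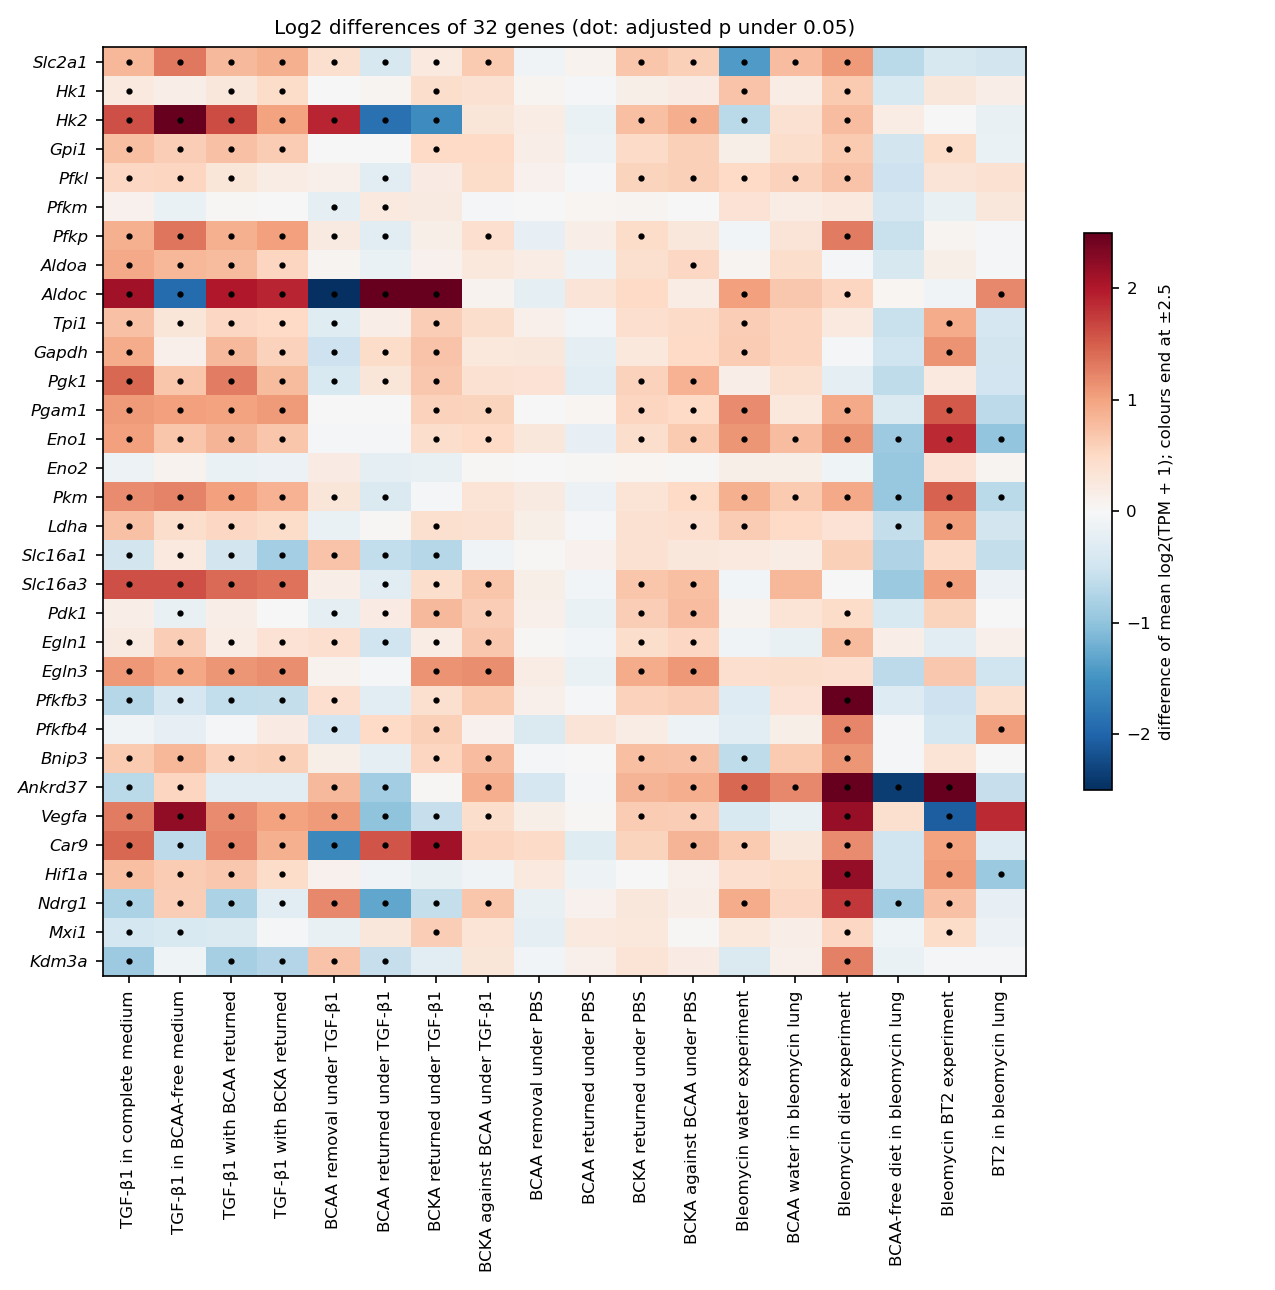
Difference of mean log2(TPM + 1) of the 32 genes (rows) in 18 comparisons (columns: cultures left, lungs right), red higher and blue lower in the first-named condition, with colours ending at 2.5 log2. Dots mark an adjusted p under 0.05; the columns for BCKA against BCAA hold red dots only, 12 with TGF-β1 and 17 with PBS.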

How the data were processed

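Poly(A) RNA was sequenced from 24 fibroblast cultures and 30 lungs. The authors deposited 4 tables of TPM, 1 for the cultures and 1 per lung experiment (in the labels, batches 1 to 4), in which each library sums to 1000000. Per the submitters' processing notes, FastQC, Trim Galore, HISAT2, featureCounts (Subread), DESeq2 and mm39 were used; their versions, the annotation and the use of strand are not given in the sources used here. Depth is unknown, so no counting error could be given.

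Values were taken as log2(TPM + 1) for genes at or above 1 TPM in 3 or more libraries. Rows without a symbol were dropped and rows sharing a symbol were summed. Each table was fitted with limma 3.58.1 (R 4.3.3, mean-variance trend, no block) over all its groups, with Benjamini-Hochberg adjustment over all genes tested, and 22 comparisons were drawn. Comparisons stay within a table, so each lies within 1 batch. The procedure was tested on simulated data. The members and lists were chosen with earlier results of these data known. Per comparison, values are given for at most the 8 called members with the largest log2 difference and for members followed across conditions, and for at most 2 genes of each other list. One gene of the other lists is not reported here by name. Alternatives were other pseudocounts (0.1, 0.5), other filters (none, TPM of at least 5), median-centred libraries, a replicate block, only the compared groups, and leaving out each library.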

Additional observations from a re-analysis of the deposited data

Results flagged for a closer look

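Among 96 sets of 4 lungs (32 genes in 3 groups of the diet experiment), 7 held a lung far from the other 3, where chance alone gives about 1 in 20. The sets share the same 12 lungs and are not independent, so the count is not read as above chance. In 6 of them it was BLM_BCAA_free replicate 3, the lung named above as standing apart: it was low for Pfkm (10.5 TPM), Aldoa (351 TPM), Pgk1 (131 TPM) and Pfkfb4 (13.6 TPM), and high for Hif1a (94.3 TPM) and Kdm3a (23.0 TPM). The other was Slc16a3 in BLM_ND, where replicate 1 was high at 37.7 TPM.

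The response to TGF-β1 differed between BCAA-free and complete medium in 15 of the 32 genes, by the test of that difference in limma, on a background of 47.6% of all genes. It was higher in BCAA-free medium for Hk2 (1.71 log2), Ndrg1 (1.40 log2), Ankrd37 (1.22 log2), Vegfa (0.92 log2), Kdm3a (0.79 log2), Slc16a1 (0.70 log2), Slc2a1 (0.50 log2), Pfkp (0.43 log2) and Egln1 (0.40 log2). It was lower for Aldoc (-4.03 log2), Car9 (-2.08 log2), Gapdh (-0.79 log2), Pgk1 (-0.74 log2), Pdk1 (-0.36 log2) and Eno1 (-0.32 log2). The glycolytic genes of the set thus stand on both sides.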

How the results depend on the processing

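Counts of called genes among the 32 moved by over 1.5 times under these alternatives, for which the cause was not tested. Except for centring, the shares of all genes called under these alternatives are not given here. With only the compared groups in the fit, the counts were 1 for BCAA removal with PBS, 9 for BCAA removal with TGF-β1, 11 for BCAA return with TGF-β1, 20 for BCKA against BCAA with TGF-β1, 1 for BCKA against complete medium, 3 for the difference in TGF-β1 response between BCKA and BCAA, 0 for BCAA water and 0 for BT2. Without a filter on low values BCAA water had 1 and BT2 had 3. BT2 had 3 at a pseudocount of 0.1 and 9 with centred libraries. Leaving out 1 library gave 0 to 6 calls for BCAA water, 3 to 8 for the BCAA-free diet, 8 to 18 for bleomycin in the BT2 experiment and 0 to 8 for BT2, against 14 to 15 for BCKA over BCAA with PBS and 8 to 10 with TGF-β1. Centring turned Aldoc (-0.020 log2), Mxi1 (-0.038 log2) and Pdk1 (-0.11 log2) negative for bleomycin in the diet experiment.

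With the replicate number as a block, BCAA water kept 1 call, BCKA against BCAA had 17 calls with PBS and 12 with TGF-β1, and 8 of 304 called values lost their call. Deviations of samples that share a number had a median correlation of 0.01 in cultures. The medians were -0.05, -0.01 and 0.03 in the water, diet and BT2 lungs. Single culture pairs ranged from -0.49 to 0.54, with 29 of 84 above 0.1. The medians show no general shared deviation. With so few libraries per group they cannot decide whether the numbers pair samples. Of the called values of single genes, 231 of 1968 lost their call when a library was left out and 0 reversed.

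Without Gapdh, the summed enzyme level was 12914 TPM with BCKA, 9838 TPM with BCAA, 10724 TPM without either and 10428 TPM in complete medium under TGF-β1, and 8242, 5648, 6159 and 5374 TPM in the same media with PBS. In BLM_DMSO it was 3304 TPM. All sums and shares are relative within a library, and the unknown depth limits what can be said of low genes such as Ankrd37 and Car9 in culture.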
